A study of Glycine max with 18 samples.

Results

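TW-1-M and TW-1, a pair of low phytate (LPA) soybean mutants, were compared with germination stage held constant. All 18 libraries entered the comparison, 9 of TW-1-M and 9 of TW-1, and each gene received 1 line difference, which is the mean of TW-1-M minus the mean of TW-1 on the log2(FPKM + 1) scale with stage as a covariate. FPKM is the fragment count of a gene scaled to its transcript length and to the mapped fragments of its library. Of 45955 genes in the deposited table, 27150 reached an FPKM of 1 in 3 or more libraries and were tested. A gene was called when the Benjamini-Hochberg adjusted p-value of limma was below 0.05 and its line difference was above 1 or below -1. The genes described are the 1709 called genes whose mean difference had the same sign at every stage, which are named one-sign genes here.

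TW-1 came from gamma irradiation of the vegetable soybean variety Taiwan 75, and TW-1-M is a natural variant that arose in the TW-1 line. Both lines carry the 2-bp deletion in GmMIPS1, so the comparison holds that mutation in common, and the line difference is between 2 mutants and not between mutant and wild type. The labels give TW-1 a very low rate of seed field emergence and TW-1-M a higher one. Whole germinating seeds were sampled from dishes of B5 agar kept in the dark at 25°C. The labels describe stage 1 as imbibition, stage 2 as 12 h after imbibition was finished and stage 3 as a primary root of 1 mm. The methods of the study time the stages differently, with a shorter gap between stages 1 and 2, so the interval between them is uncertain. Each line had 3 libraries at each stage, written below as TW-1-3 for TW-1 at stage 3. No label says that the replicates came from separate seed lots, so p-values measure the spread between these libraries, which may be technical. Whole seeds hold embryo axis, cotyledons and seed coat, and fewer cells of a type cannot be told apart from less RNA per cell.

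A dry seed carries stored transcripts from maturation. Among them are those of late embryogenesis abundant (LEA) proteins, which protect cells in the dry state, small heat shock proteins, storage proteins, and the enzymes of raffinose family sugars. During germination these transcripts are degraded, and transcripts for water channels, cell wall loosening, the cytoskeleton and protein synthesis appear while the axis elongates. Phytate is made from inositol phosphate, whose first step is catalysed by myo-inositol-3-phosphate synthase (MIPS).

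The summed FPKM of a library ranged from 683231 to 1296622, and 30656 to 34820 genes were above 0. The sums tended to be lower in TW-1-M, with overlap at each stage. They ran from 1002012 to 1208272 in TW-1-1 and from 919474 to 1091557 in TW-1-M-1. At stage 2 they ran from 845956 to 1052448 and from 683231 to 881004, and at stage 3 from 793482 to 1296622 and from 709835 to 808320. Replicate 1 of TW-1-3 stood apart from its group. Its correlation with the other libraries of TW-1-3 was 0.762 and 0.797, whereas every other pair of replicates lay between 0.911 and 0.976. On the first principal component, which held 68% of the variance and ran from stage 1 to stage 3, it lay at -89.9, between the lowest and highest libraries of TW-1-1 and TW-1-2, while its replicates lay at 123.1 and 98. On the second component it lay at -87.6, while all other libraries lay from -29.7 to 46.8, so it was unlike the earlier stages there. It also had the highest summed FPKM and the fewest genes above 0. Results are therefore given with and without this library. On the first component the TW-1-2 libraries lay from -116 to -20 and the TW-1-M-2 libraries from 48.5 to 80, without overlap. At stage 1 TW-1 lay from -138 to -91.1 and TW-1-M from -119 to -24.6, and at stage 3 TW-1-M lay from 104.1 to 152.9.

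The transcript of MIPS, the gene known as GmMIPS1, was low in both lines. Its FPKM was 1.5, 2.60 and 7.01 at the lowest, median and highest of the 9 TW-1 libraries, and 1.22, 4.30 and 14.9 in those of TW-1-M. The ranges overlapped, and the line difference of 0.36 ± 0.32 (SE) was not called (adjusted p = 0.379, limma). These values do not check the labels, because both lines carry the deletion. A second synthase gene, MIPS4, ranged from 2.11 to 28.4 FPKM in TW-1 with a median of 4.14, and from 0 to 9.82 in TW-1-M with a median of 1.47. It was called lower (-1.56 ± 0.53 SE, adjusted p = 0.0368), although the 9 and 9 libraries overlapped, and it was not called when no filter on low values was applied (adjusted p = 0.0555). Of the 12 tested genes of inositol phosphate and phytate metabolism, it was the only one called. The median of this list was 0.27, beside 0.36 over annotated genes and 0.02 over all genes tested. The inositol phosphate kinases IPK1 (0.61 ± 0.32 SE) and IPK2 (0.17 ± 0.14 SE), which act on later steps towards phytate, had line differences that were not called.

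Over the 27150 genes, 1748 were called, which is 6.44% of those tested. In TW-1-M 843 were higher (3.10%) and 905 were lower (3.33%). Of these, 836 higher (3.08% of genes tested) and 873 lower (3.22%) had 1 sign at all stages. A single sign at every stage was common in itself and held for 58.4% of all genes tested, called or not, so the sign alone does not set the one-sign genes apart. Among the 39 called genes that changed sign, 32 were lower on average. With upper quartile scaling, which moved the median line difference of all genes from 0.02 to 0.09, 1089 one-sign genes were higher and 673 lower, so which direction held more genes depended on the scaling. There were 351 higher and 604 lower without replicate 1 of TW-1-3, and without replicate 1 of TW-1-2 there were 436 and 691. Leaving out replicate 2 of TW-1-3 gave 1430 and 1123.

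**Figure D1:**
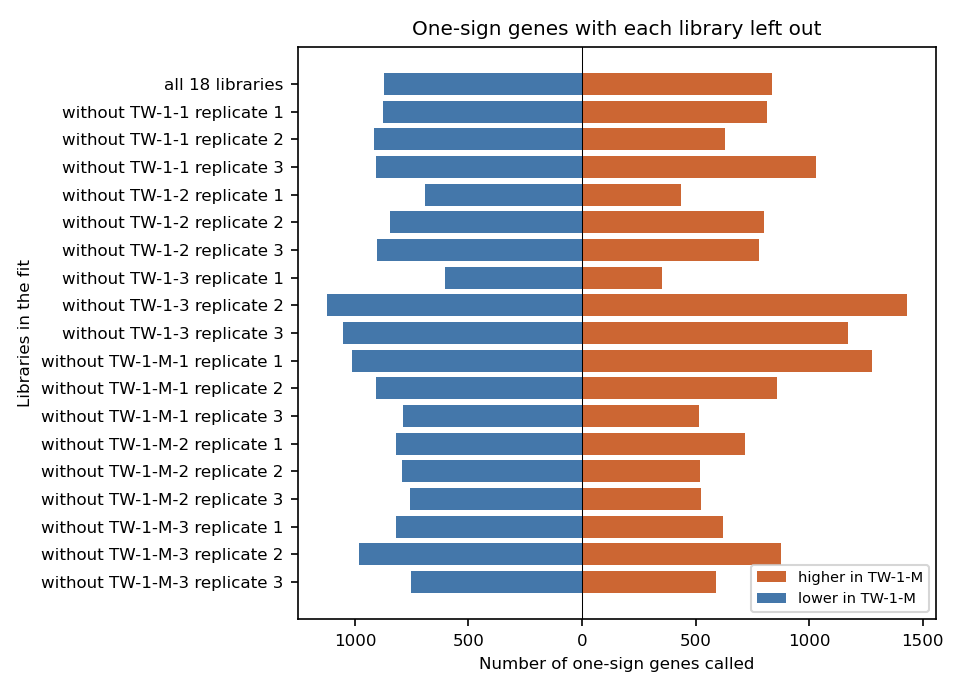
Number of one-sign genes called higher (right) and lower (left) in TW-1-M with all 18 libraries and with each library left out in turn. The counts fell furthest, to 351 higher and 604 lower, without replicate 1 of TW-1-3.

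The one-sign differences had smaller medians at stage 1 than later, although only 5 one-sign genes passed the interaction test given below. Replicate 1 of TW-1-2 lay at -116 on the first principal component, while its replicates lay at -20 and -24.2. Without it 1098 of the 1709 one-sign genes (64.2%) were still called. The median difference of the 836 higher genes was 0.87 at stage 1, 1.57 at stage 2 and 1.25 at stage 3, and 555 of them had their largest difference at stage 2. The 873 lower genes had medians of -0.95, -1.77 and -1.36, and 507 had their largest difference at stage 2. Only 159 of the higher and 210 of the lower genes differed by more than 1 at each of the 3 stages. The 3 libraries of each line did not overlap at any stage for 128 of the higher and 279 of the lower genes, and over all genes tested 4.01% had no overlap in 1 direction at every stage. At stage 3 alone 282 of the higher genes had no overlap, beside 781 at stage 2, and the library of TW-1-3 that stood apart was among the 3 at stage 3. The share over all genes tested was not computed for single stages, and the genes were called on the same values. These counts are therefore not read as a trait of the set.

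Most one-sign genes also changed along germination. Stage change was tested in the same fit as stage 3 minus stage 1, and over all genes tested 19.0% rose and 14.5% fell. Of the 836 one-sign genes higher in TW-1-M, 676 rose with stage, 12 fell and 148 had no called stage change. Of the 873 lower in TW-1-M, 677 fell with stage, 6 rose and 190 had no called stage change. The line difference and the stage change were estimated from the same 18 libraries, so their pairing is given as a description. In the plot of line difference against stage change the higher genes lie mostly in the upper right and the lower genes in the lower left.

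**Figure D2:**
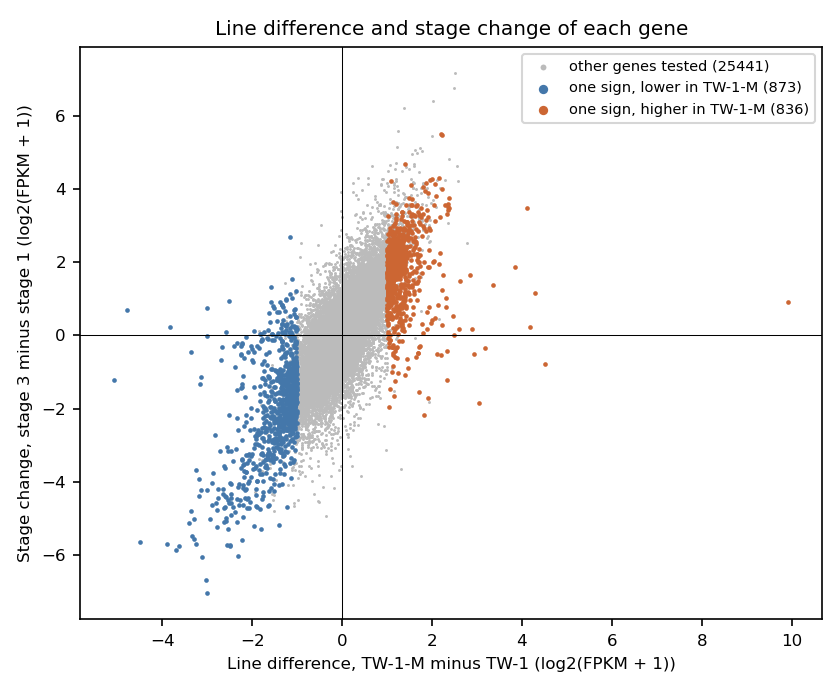
Line difference (x axis) and change from stage 1 to stage 3 (y axis) of each of the 27150 genes tested, both as differences of log2(FPKM + 1). Most of the 836 higher genes lie where transcripts rose with stage and most of the 873 lower genes where they fell, and the genes far from 0 on the x axis and near 0 on the y axis are those with a line difference and little stage change.

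When the position of each library on the first principal component was added as a covariate, 466 genes were called. Of the 1371 one-sign genes with a called stage change, 151 were still called in the same direction (11%), and 204 took the other sign. Of the 338 without a called stage change, 113 were still called (33.4%) and 6 took the other sign. Leaving out replicate 1 of TW-1-3 kept 726 of the 1371 (53.0%) and 242 of the 338 (71.6%). The component was computed from the same libraries, and the lines did not overlap on it at stage 2, so part of the line difference goes into the covariate. The part of germination progress in the line difference was not tested apart from the lines, because stage was the only label of progress.

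A smaller set of genes separated the lines in every library whatever the stage. In 86 one-sign genes the lowest of the 9 libraries of one line was above the highest of the other, with 40 higher and 46 lower in TW-1-M. Over all genes tested 0.541% were separated in this way. Of the 86 genes, 76 had no called stage change, 71 were still called with the principal component as a covariate, and 80 were called without replicate 1 of TW-1-3. Separation across all stages tends to leave out genes that change with stage, so these counts follow in part from the selection. The genes described next are the 8 in each direction with the largest line difference among one-sign genes without overlap at any stage, and 11 of these 16 were separated in all libraries. All 16 were called without replicate 1 of TW-1-3, and all but XM_014770622.1 with the principal component. The 16 were picked on these same libraries for large differences without overlap, so these calls largely follow from the choice and are no independent check.

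The largest line difference was that of the transcript XM_003519333.3, which has no annotation here. It was at 0, 0 and 4.43 FPKM in TW-1-1, at 0, 3.20 and 5.99 in TW-1-2 and at 0, 5.24 and 15.0 in TW-1-3. In TW-1-M it was among the abundant transcripts, at 1487, 2372 and 3068 FPKM at stage 1, 2488, 3640 and 4638 at stage 2 and 1181, 4178 and 5413 at stage 3. Its line difference was 9.92 ± 0.52 (SE, adjusted p = 2.95e-09), with 10.3, 10.14 and 9.33 at the 3 stages.

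A transcript annotated as an outer plastidial membrane protein porin (LOC100802449), a channel of the plastid envelope, had no called stage change. Its FPKM lay between 0.1 and 1.84 in the 9 TW-1 libraries with a median of 0.28, and between 21.5 and 28.7 in TW-1-M with a median of 24.8. The line difference was 4.18 ± 0.16 (SE, adjusted p = 7.18e-11), and the stage differences were 4.44, 4.12 and 3.97. PIP2-12, a plasma membrane aquaporin that passes water across the cell membrane, reached 0, 0.48 and 7.49 FPKM at the lowest, median and highest of TW-1, and 17.8, 42.4 and 74.6 in TW-1-M. The 2 highest TW-1 values were both at stage 3, and the line difference was 4.30 ± 0.35 (SE, adjusted p = 7.04e-07).

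Its relative PIP2-14 also rose with stage. In TW-1 it was at 0.31, 0.65 and 0.66 FPKM at stage 1, at 0.53, 1.61 and 4.02 at stage 2 and at 0.55, 17.9 and 28.6 at stage 3, where the value of 0.55 is replicate 1. In TW-1-M it was at 2.99, 8.09 and 29.0, then at 76.8, 90.5 and 118, then at 86.9, 196 and 531. The lines did not overlap at any stage, although the highest TW-1 library at stage 3 lay near the highest TW-1-M library at stage 1, and the line difference was 4.11 ± 0.56 (SE, adjusted p = 0.000238). Without replicate 1 of TW-1-3 it was 3.71 and still called.

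The gene gene51756 is annotated as a soyasapogenol B glucuronide galactosyltransferase, which adds galactose to soyasaponins. It was listed at 0 FPKM in 8 of 9 TW-1 libraries and at 0.07 in the other, and between 0.37 and 42.1 in TW-1-M with a median of 12.0. The stage differences were 2.01, 3.35 and 4.70, and the line difference was 3.35 ± 0.41 (SE, adjusted p = 8.31e-05). A receptor-like protein kinase annotated as At5g39020 (LOC100820366) was at most 0.13 FPKM in TW-1 and at least 3.13 in TW-1-M, with a line difference of 3.17 ± 0.22 (SE, adjusted p = 7.1e-08). The other genes of this group, gene8951 (4.50 ± 0.23 SE) and LOC100500432 (3.84 ± 0.45 SE), are uncharacterized.

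Among the genes lower in TW-1-M, ZPR3A had the largest difference. It is annotated as a LITTLE ZIPPER 4-like protein, and in Arabidopsis LITTLE ZIPPER proteins bind and inhibit homeodomain leucine zipper class III factors. Its FPKM was 81.8, 109 and 137 in TW-1-1, 32.8, 44.2 and 74.6 in TW-1-2 and 8.96, 16.0 and 78.7 in TW-1-3, with replicate 1 again the value near the earlier stages. In TW-1-M it never exceeded 2.84, and 8 of the 9 libraries were at or below 0.66. The line difference was -5.07 ± 0.38 (SE, adjusted p = 2.56e-07).

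A metalloendoproteinase 5-MMP-like gene (LOC100782377), which codes for a matrix metalloproteinase, lay between 73.8 and 351 FPKM in TW-1 with a median of 130.4 and between 0.69 and 29.4 in TW-1-M with a median of 5.02. Its line difference was -4.77 ± 0.5 (SE, adjusted p = 2.08e-05), and it had no called stage change. Another gene with the same annotation, gene3016, moved in the other direction (1.36 ± 0.24 SE, adjusted p = 0.00182). The villin-4-like gene LOC100807762, a member of a family that bundles actin filaments, was between 5.40 and 17.2 FPKM in TW-1 and at most 0.09 in TW-1-M. Its line difference was -3.35 ± 0.16 (SE, adjusted p = 7.13e-10).

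The heat shock cognate 70 kDa gene LOC100789474, a chaperone, was at 34.01, 40.4 and 49.3 FPKM in TW-1-1, at 24.8, 28.3 and 36.5 in TW-1-2 and at 10.9, 14.7 and 20.8 in TW-1-3. In TW-1-M it was at 0.18, 0.2 and 0.23, then at 0.33, 0.41 and 0.42, then at 2.41, 2.61 and 5.33. The gap was widest at stage 1 and narrowed at stage 3, where the stage difference was -1.90. The line difference was -3.83 ± 0.36 (SE, adjusted p = 5.06e-06). The other 4 genes of this group fell with stage, namely the uncharacterized LOC100808941 (-3.70 ± 0.46 SE) and LOC100785774 (-3.29 ± 0.36 SE), the transcript XM_014770622.1 (-3.41 ± 0.67 SE), and PM35, which belongs to the maturation genes below.

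**Figure D3:**
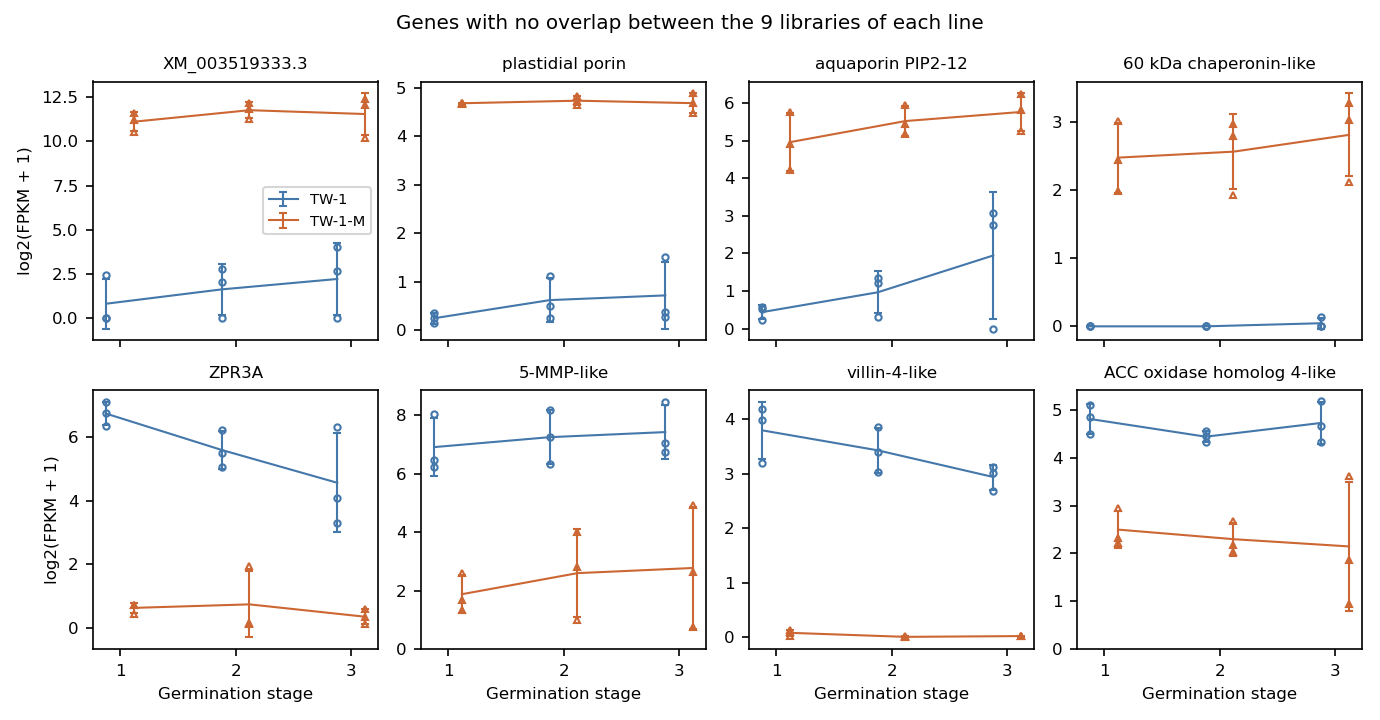
Level of 8 genes in each library by stage as log2(FPKM + 1), with circles for TW-1, triangles for TW-1-M, and lines and bars for the mean and SD of 3 libraries. Each panel shows a gene in which the 9 libraries of TW-1 and the 9 of TW-1-M did not overlap, 4 higher and 4 lower in TW-1-M.

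In 18 genes every library of one line was at an FPKM of at least 1 and every library of the other was below 1 (0.0663% of genes tested). These genes were chosen after their values were seen. In TW-1-M 11 were at or above 1, and 7 were so in TW-1. Their single sign at every stage follows from this choice. All 18 were called, with and without replicate 1 of TW-1-3, which the choice also favours. Of the 18 genes, 9 are without annotation or uncharacterized. The disease resistance protein gene LOC100305457 was listed at 0 in all 9 TW-1 libraries and lay between 1.54 and 5.54 FPKM in TW-1-M with a median of 2.98. Its line difference was 1.97 ± 0.13 (SE, adjusted p = 5.09e-08). The 60 kDa chaperonin-like gene LOC100809997, of the family that folds proteins in plastids and mitochondria, was listed at 0 in 8 TW-1 libraries and at 0.1 in the other, and lay between 2.82 and 8.71 in TW-1-M (2.60 ± 0.17 SE, adjusted p = 5.09e-08). A DENN domain protein gene annotated as SCD1-like (gene14023) was near the threshold on both sides, from 0.07 to 0.98 in TW-1 and from 1.04 to 4.30 in TW-1-M. In the other direction, the polyadenylate-binding protein 7-like gene LOC100779547 lay between 1.86 and 6.10 FPKM in TW-1 and between 0.09 and 0.52 in TW-1-M, and a LAZ1 homolog (LOC100782254) between 1.01 and 2.71 and between 0 and 0.29.

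Genes were next grouped by 22 lists of annotation terms. Annotations were available for 2988 of the genes tested and came mostly from genes that the study had itself called in these libraries, so list counts are not independent evidence. Of the 2988 annotated genes 9.67% were called higher and 13.1% lower, and list counts are read beside these shares. The median line difference of annotated genes was 0.36. With the principal component as a covariate the number of called one-sign genes was lower in every list except abscisic acid, where it was 4. The list of histones, the cell cycle and tubulin then had 0 higher and 1 lower one-sign genes, cell wall 2 and 1, storage proteins 2 and 2, raffinose 0 and 3, heat shock 0 and 8, transport 4 and 2, ethylene 3 and 2, proteolysis 2 and 2, transcription factors 7 and 5, and P450 enzymes 0 and 5.

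The list of LEA and seed maturation genes, which need not hold every such gene, was lower in TW-1-M almost throughout. Of 24 LEA and seed maturation genes tested, 23 were called lower (95.8%), 22 of them with 1 sign, and none was called higher. The list median was -2.29. All 23 also fell with stage. Without replicate 1 of TW-1-3 the list again had 22 one-sign genes, and with the principal component as a covariate it had 11. The single gene not called was the KS-type dehydrin SLTI629 (LOC100137078, -0.53 ± 0.29 SE).

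SLE2 codes for an Em protein, a LEA protein of the dry embryo. It was at 3446, 8997 and 13927 FPKM in TW-1-1, at 3314, 3638 and 7376 in TW-1-2 and at 150, 592 and 1040 in TW-1-3. In TW-1-M it was at 1060, 2500 and 3505, then at 125, 172 and 244, then at 10.4, 11.2 and 14.6. The lines overlapped slightly at stage 1 and not at stages 2 and 3, and TW-1-M at stage 2 overlapped TW-1 at stage 3. Its line difference was -3.88 ± 0.5 (SE, adjusted p = 0.000138). The seed maturation protein gene PM35 did not overlap at any stage and had a line difference of -3.33 ± 0.5 (SE, adjusted p = 0.000499).

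Raffinose family sugars are made from sucrose by galactinol synthase, raffinose synthase and stachyose synthase, and are used up early in germination. Of 7 genes tested 6 were called lower with 1 sign, none higher, and the median was -2.48. All 3 galactinol synthases were among them. Galactinol synthase 1 (LOC100809287) was at 1246, 1464 and 1902 FPKM in TW-1-1 and at 352, 546 and 703 in TW-1-M-1, at 558, 609 and 913 against 46.2, 65.7 and 81.5 at stage 2, and at 29.5, 53.5 and 658 against 1.02, 8.35 and 18.1 at stage 3. The lines did not overlap at any stage, and the value of 658 at stage 3 is replicate 1 of TW-1-3. The line difference was -2.94 ± 0.54 (SE, adjusted p = 0.00212) with that library and -2.49 without it. Galactinol synthase 2 (gene55115) had -2.89 ± 0.38 (SE, adjusted p = 0.000153). The 7th gene, a probable galactinol-sucrose galactosyltransferase (LOC100816978), had -0.4 ± 0.16 (SE) and was not called.

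Of 42 genes of heat shock proteins and heat stress factors 25 were called lower, 23 of them with 1 sign, and none was called higher. The median was -1.27, and 30 of the 42 fell with stage. Of the 19 small heat shock proteins, which hold unfolding proteins in solution, 15 were one-sign lower. This and the other subgroups were formed after the values were seen. HSP17.3-B was at 208, 326 and 456 FPKM in TW-1-1, at 89.8, 205 and 316 in TW-1-2 and at 5.73, 8.70 and 37.8 in TW-1-3. In TW-1-M it was at 34.5, 49.1 and 72.8, then at 4.53, 7.25 and 9.26, then at 0.42, 1.83 and 3.69. It did not overlap at any stage, and its line difference was -3.18 ± 0.41 (SE, adjusted p = 0.000138). Of the 10 members of 70 kDa 3 were one-sign lower, and among these LOC100789474 was the one without a called stage change. The list had 19 one-sign genes without replicate 1 of TW-1-3.

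Storage and oil body proteins were meant as the check that seed tissue was sampled. Their transcripts were above 0 in every library for all of the 20 genes except GY3 and lectin DB58 (LOC100775957). This bar cannot decide the question, because 30656 to 34820 genes were above 0 in each library. The 20 genes had also passed the filter on low values, and the share over all genes tested was not computed. Of 20 tested 9 were called lower, 7 with 1 sign, and 1 higher, with a median of -1.08. Glycinin GY4 lay between 24.5 and 294 FPKM in TW-1 with a median of 143, and between 1.06 and 95.6 in TW-1-M with a median of 25.6 (-2.36 ± 0.35 SE, adjusted p = 0.000499). An oleosin, P24 oleosin isoform A-like (LOC100789191), which coats oil bodies, had -2.21 ± 0.48 (SE, adjusted p = 0.00538). Another glycinin gene, GY3, went the other way, at most 0.29 FPKM in TW-1 and between 0.13 and 10.04 in TW-1-M, where its 3 stage 1 values were 3.34, 3.6 and 10.04 (1.40 ± 0.25 SE, adjusted p = 0.00166). None of the 4 Kunitz trypsin inhibitor genes was called.

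**Figure D4:**
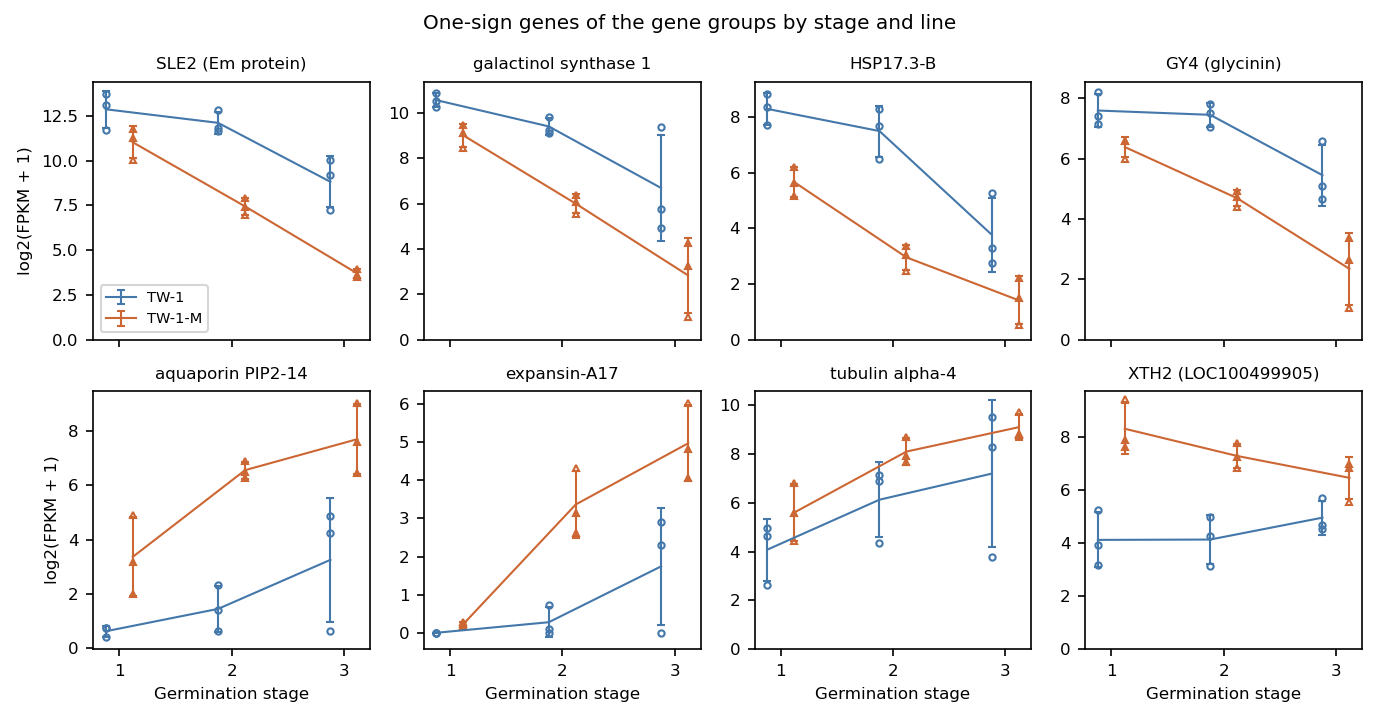
Level of 8 one-sign genes in each library by stage as log2(FPKM + 1), with circles for TW-1, triangles for TW-1-M, and lines and bars for the mean and SD of 3 libraries. The upper 4 genes fell with stage and were lower in TW-1-M, and of the lower 4 genes PIP2-14, expansin-A17 and tubulin alpha-4 rose with stage while XTH2 was higher in TW-1-M from stage 1.

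Of the list of abscisic acid, the hormone that maintains dormancy, 2 of 15 genes were called, both lower (13.3%, beside 13.1% of annotated genes). They were the type 2C protein phosphatases LOC100813248 (-2.15 ± 0.36 SE, adjusted p = 0.00128) and LOC100784071 (-1.73 ± 0.22 SE, adjusted p = 0.000128). Such phosphatases act as negative regulators of abscisic acid signalling in clade A, and the annotation does not give the clade. LOC100813248 was at 377, 513 and 546 FPKM in TW-1-1 and at 229, 231 and 309 in TW-1-M-1, and at 16.9, 40.4 and 149 against 4.10, 7.70 and 8.97 at stage 3. The 3 receptor genes and abscisic acid 8'-hydroxylase, which degrades the hormone, were not called. The list median was -0.16.

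In the ethylene list 9 of 34 were called lower and 2 higher, all with 1 sign, and the median was -0.39. An ACC oxidase homolog (gene3572) was steady with stage, between 19.0 and 35.6 FPKM in TW-1 and between 0.93 and 11.3 in TW-1-M, with a line difference of -2.35 ± 0.26 (SE, adjusted p = 3.57e-05). It was the only one of 12 ACC oxidases and homologs that was called, and the median of the 12 was 0.92. Of the others, 5 had line differences from 1.14 to 2.15 that were not called, the largest that of LOC100793294 (2.15 ± 0.98 SE, adjusted p = 0.0984). ACC oxidase catalyses the last step of ethylene synthesis, but the annotation of gene3572 as a homolog does not show that it has this activity. Of 18 ethylene-responsive transcription factors 7 were one-sign lower, among them ERF110-like LOC100796247 (-2.04 ± 0.38 SE, adjusted p = 0.00209). Both higher genes were ERF012-like, AP2-3 (1.60 ± 0.24 SE, adjusted p = 0.000504) and AP2-5 (1.07 ± 0.22 SE, adjusted p = 0.0039), the latter not called after quantile normalization (0.95).

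Gibberellin promotes germination, and 1 of the 6 tested genes of its list was called, gibberellin 20-oxidase 1 (gene25632), an enzyme of its synthesis (1.04 ± 0.35 SE, adjusted p = 0.0348). It was not called without replicate 1 of TW-1-3 (0.85, adjusted p = 0.0589). The list median was 0.67. The list does not hold every gene of the gibberellin-regulated GASA family. Outside it, GASA36 (2.03), GASA29 (1.31) and GASA21 (1.29) were one-sign higher. Other GASA genes were not called one-sign genes. Some of these had differences of similar size, such as GASA14 (1.70), GASA33 (1.22) and GASA7 (1.21), and some lay nearer 0, such as GASA6 (0.39) and GASA1 (-0.005). In the auxin list 2 of 27 were higher and 1 lower, with a median of 0.44. GH3.6-like LOC100797120, an enzyme that conjugates auxin to amino acids, was lower (-1.25 ± 0.22 SE, adjusted p = 0.00162). The auxin-responsive repressor IAA27-like LOC100778529 (1.42 ± 0.45 SE, adjusted p = 0.0284) and PCNT115-like LOC100779689 (1.29 ± 0.43 SE, adjusted p = 0.0355) were higher. Without replicate 1 of TW-1-3 neither was a called one-sign gene, although IAA27-like was still called (1.08, adjusted p = 0.0325).

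**Figure D5:**
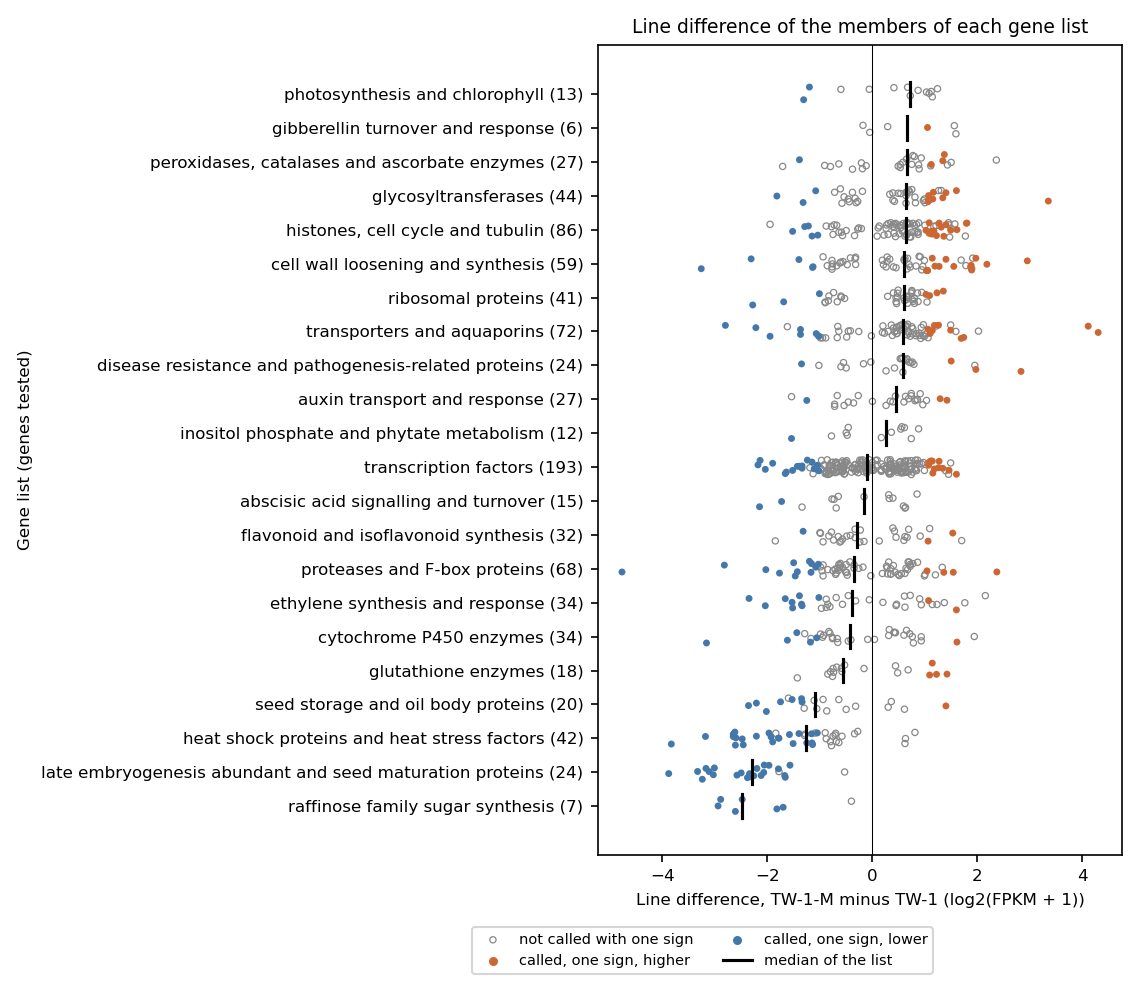
Line difference of each tested member of the 22 gene lists, TW-1-M minus TW-1 on the log2(FPKM + 1) scale, with filled points for called one-sign genes and a bar at the list median. Medians ran from -2.48 for raffinose family sugar synthesis and -2.29 for LEA and maturation proteins to 0.72 for photosynthesis and chlorophyll.

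Cell wall genes were higher more often than lower. Of 59 tested 14 were called higher (23.7%) and 5 lower (8.47%), all with 1 sign, and the median was 0.61. The xyloglucan endotransglucosylase/hydrolase 2 gene LOC100499905, whose enzyme cuts and rejoins wall xyloglucan, was at 8.10, 14.2 and 36.5 FPKM in TW-1-1 and at 197, 232 and 676 in TW-1-M-1. At stage 3 it was at 21.7, 24.4 and 50.3 in TW-1 and at 45.9, 112 and 126 in TW-1-M, so the lines overlapped there. Its line difference was 2.95 ± 0.43 (SE, adjusted p = 0.000389), without a called stage change.

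Expansins loosen walls in growing cells, and they did not move as one. The expansin-A17 gene LOC100787396 was at 0, 0.07 and 0.66 FPKM in TW-1-2 and at 5.16, 7.84 and 19.1 in TW-1-M-2, and at 0, 3.97 and 6.53 against 15.7, 27.2 and 64.6 at stage 3, where the 0 is replicate 1 (2.18 ± 0.47 SE, adjusted p = 0.00536). The expansin-A1-like gene LOC100816718 was at 114, 128 and 182 FPKM in TW-1-1 and at 22.7, 25.3 and 33.4 in TW-1-M-1, and fell in both lines with stage (-3.26 ± 0.45 SE, adjusted p = 0.000261). Of 10 expansins 2 were one-sign higher and 3 lower. Of 9 cellulose synthase genes 3 were higher and none lower. Endo-1,3-beta-glucanase (LOC547748) was lower (-2.31 ± 0.42 SE, adjusted p = 0.00192). The list had 9 higher and 5 lower one-sign genes without replicate 1 of TW-1-3.

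Of 86 genes of histones, the cell cycle and tubulin 15 were one-sign higher and 5 one-sign lower, with a median of 0.64. Tubulins, the subunits of microtubules, were 10 of the 15. The tubulin alpha-4 gene LOC100781185 was at 5.18, 24.1 and 30.2 FPKM in TW-1-1 and at 20.6, 46.7 and 110 in TW-1-M-1, and at 12.9, 315 and 727 against 438, 452 and 845 at stage 3. The lines overlapped at stages 1 and 3. Its line difference of 1.80 ± 0.63 (SE, adjusted p = 0.0407) was 1.31 and not called without replicate 1 of TW-1-3 (adjusted p = 0.0504), and a beta tubulin (LOC100819408) had 1.79 ± 0.64 (SE, adjusted p = 0.0446), a call lost with a pseudocount of 0.1 (adjusted p = 0.0538), with no filter (0.0664) and in the interaction model (0.0532). Without that library the list had 5 higher and 2 lower one-sign genes, and 4 of 19 tubulins were higher. The kinesins KIN12B (LOC100790375, -1.52 ± 0.3 SE) and KIN12A (LOC100790067, -1.29 ± 0.31 SE) were lower.

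Transporters and aquaporins were 10 of 72 higher with 1 sign and 8 lower, with a median of 0.58. Besides PIP2-12 and PIP2-14, the plasma membrane aquaporin PIP1-4 was higher (1.18 ± 0.4 SE, adjusted p = 0.0386), so 3 of 12 plasma membrane aquaporins were called, and PIP1-4 was not called without replicate 1 of TW-1-3 (0.83). The 2 largest lower genes were both alpha-type tonoplast aquaporins of the protein storage vacuole membrane. LOC100817450 was at 392, 1121 and 1601 FPKM in TW-1-1 and at 325, 409 and 546 in TW-1-M-1, and at 54.6, 104 and 259 against 0.5, 8.08 and 13.1 at stage 3 (-2.80 ± 0.52 SE, adjusted p = 0.00237). LOC100814469 had -2.22 ± 0.44 (SE, adjusted p = 0.00327).

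Of 44 glycosyltransferases 8 were one-sign higher and 3 lower (median 0.64), with hydroquinone glucosyltransferase-like LOC100810124 at 1.60 ± 0.25 (SE, adjusted p = 0.000732) after gene51756. Lower were the galactinol-sucrose galactosyltransferase gene of the raffinose list (LOC100798883, -1.82 ± 0.41 SE) and UGT2, an isoflavone 7-O-glucosyltransferase (-1.32 ± 0.29 SE, adjusted p = 0.00571). In the flavonoid list 2 of 32 were higher and 1, UGT2, lower (median -0.28). FLS1, flavonol synthase, was higher (1.53 ± 0.36 SE, adjusted p = 0.00829), as was the anthocyanidin glucosyltransferase gene17068 (1.06 ± 0.25 SE), which was not called without replicate 1 of TW-1-3 (1.00). Of 34 cytochrome P450 genes 1 was higher and 5 lower (median -0.44). Cytochrome P450 83B1-like LOC100805576 did not overlap at any stage, with 26.2, 26.2 and 40.1 FPKM in TW-1-1 against 1.64, 3.06 and 3.74 in TW-1-M-1 (-3.16 ± 0.33 SE, adjusted p = 1.56e-05). P450 78A3 (LOC100798388) had -1.62 ± 0.27 (SE, adjusted p = 0.000983), and CYP82D47-like LOC100787630 was the higher one (1.61 ± 0.38 SE).

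Among 27 peroxidases, catalases and ascorbate enzymes 3 were higher and 1 lower, all with 1 sign, with a median of 0.65. The 3 higher genes were annotated as L-ascorbate oxidase homologs, led by LOC100818914 (1.37 ± 0.27 SE, adjusted p = 0.003) and LOC100796699 (1.34 ± 0.4 SE, adjusted p = 0.0236), the latter at 0.94 and not called without replicate 1 of TW-1-3. CAT4, a catalase that breaks down hydrogen peroxide, was lower (-1.39 ± 0.35 SE, adjusted p = 0.0108). None of 9 class III peroxidases was called, though peroxidase 12-like LOC100795412 had 2.36 ± 1.15 (SE). In the glutathione list 4 of 18 were higher and none lower, while the median was -0.56, so the calls and the median differed in sign. The 4 included GLYI-7, a lactoylglutathione lyase that detoxifies methylglyoxal (1.42 ± 0.35 SE, adjusted p = 0.00965), and glutathione S-transferase GST 12 (LOC547581, 1.22 ± 0.29 SE, adjusted p = 0.00831).

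Of the 68 genes of the proteolysis list, which holds proteases and F-box proteins but also the inhibitor D-II, 4 were one-sign higher and 12 lower (median -0.35). Beside LOC100782377, the lower ones were led by D-II, a Bowman-Birk protease inhibitor of seeds (-2.82 ± 0.39 SE, adjusted p = 0.000257). Serine carboxypeptidase-like 27 (LOC100796815) was the largest higher one (2.37 ± 0.61 SE, adjusted p = 0.0122), with ASPARTIC PROTEASE IN GUARD CELL 2-like LOC100775446 next (1.54 ± 0.51 SE, adjusted p = 0.0327). Of 193 transcription factors 12 were one-sign higher and 18 lower (median -0.1). WRKY6 (-2.14 ± 0.33 SE, adjusted p = 0.000716) and MYB68 (gene9199, -2.18 ± 0.35 SE, adjusted p = 0.000914) were the largest lower ones and GATA12-like LOC100776588 (1.46 ± 0.49 SE, adjusted p = 0.0359) was the largest higher one after AP2-3, although it was not called without replicate 1 of TW-1-3 (1.16, adjusted p = 0.0596). Of 24 disease resistance and pathogenesis-related genes 3 were higher and 1 lower (median 0.58). The class III acidic endochitinase LOC547449 was at most 4.38 FPKM in TW-1 with a median of 0.49, and reached 80.6 in TW-1-M with a median of 19.4 (2.83 ± 0.64 SE, adjusted p = 0.00666). Chitinase-like protein 2 (LOC100809617) was lower (-1.35 ± 0.48 SE, adjusted p = 0.0436), but was not called with upper quartile scaling (adjusted p = 0.0532) or with no filter (0.0648), and no lower gene of this list was called with that scaling.

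Ribosomal proteins gave 4 higher and 3 lower of 41, with a median of 0.6. 60S L4-like LOC100796712 did not overlap at any stage (1.23 ± 0.22 SE, adjusted p = 0.00174). 40S S26-1 (LOC100781822) had 1.35 ± 0.47 (SE, adjusted p = 0.0408) and was not called without replicate 1 of TW-1-3 (1.04, adjusted p = 0.0667). The 50S L24-like gene4205 (-2.28 ± 0.42 SE, adjusted p = 0.00196) and 60S L10 (gene49921, -1.69 ± 0.45 SE, adjusted p = 0.014) were lower and fell with stage. In the photosynthesis and chlorophyll list 2 of 13 were called, both lower, while the median was 0.72. They were NYC1 (gene26052, -1.31 ± 0.22 SE, adjusted p = 0.00111), which starts chlorophyll b degradation, and chlorophyllide a oxygenase (gene11481, -1.20 ± 0.18 SE, adjusted p = 0.000507), which makes chlorophyll b.

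Whether the line difference changed in size between stages was tested as the interaction of line and stage. At the adjusted p-value of limma 16 genes passed (0.0589% of genes tested), and 2655 passed at the unadjusted p-value. Of the 16, 10 were called in the line difference and 5 were one-sign genes, 1 higher and 4 lower. Without replicate 1 of TW-1-3 the number rose to 124. The gene with the largest spread between stages was LOC102667357, annotated as a neurofilament medium polypeptide-like protein, at 450, 488 and 548 FPKM in TW-1-1 against 11.2, 18.5 and 68.0 in TW-1-M-1, at 164, 244 and 318 against 2.66, 4.78 and 7.29 at stage 2, and at 1.58, 2.77 and 4.15 against 1.14, 2.86 and 3.05 at stage 3. The lines were far apart at stages 1 and 2 and overlapped at stage 3, where both were low. The next 2 in spread were XM_014770622.1, with stage differences of -0.97, -3.59 and -5.67, and the seed allergen Gly m Bd 28K (LOC547942), with -0.22, -3.16 and -4.89. For both the interaction did not pass (adjusted p = 0.308 and 0.178).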

How the data were processed

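RNA of whole germinating soybean seeds was sequenced in 18 libraries. Trimmomatic was used by the authors for read trimming and TopHat for mapping. The deposited table holds FPKM values that the authors obtained from cuffquant followed by cuffnorm, so they already carry scaling between libraries. Versions of these tools are not given in the sources used here. The table holds no read counts, so the depth behind a value is unknown here and no counting interval was computed.

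Columns were assigned by name to line, stage and replicate. Log2(FPKM + 1) of genes that reached FPKM 1 in 3 or more libraries was fitted in limma 3.58.1 (R 4.3.3, lmFit and eBayes with trend) with line and stage as factors, with p-values two-sided and adjusted by Benjamini-Hochberg across all 27150 genes. The added 1 makes differences of low genes smaller than those of their FPKM. The interaction was limma's F test. The fit was tested on simulated data. Counts and figures were made in Python 3.11.15 with pandas 2.3.3, NumPy 2.4.6 and matplotlib 3.10.9. Commas inside numbers of the table were removed on reading.

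Of the table's genes 36767 were matched by accession to a symbol of the RefSeq table of Glycine_max_v4.0, used for names and gene order only, and 3129 to an annotation and gene number (such as gene3572) in the study's supplementary files. Named genes were the 8 largest in each direction among one-sign genes without overlap at any stage, the 2 largest one-sign genes of each list and direction, the MIPS genes, and the 3 called genes with the largest spread between stages. Others named were chosen after their values were seen. The members and lists were chosen with earlier results of these data known. The lists were LEA and maturation, heat shock, raffinose, storage, abscisic acid, ethylene, gibberellin, auxin, antioxidant, glutathione, flavonoid, cell wall, photosynthesis, ribosome, cell division, inositol, P450, glycosyltransferase, transcription factor, transport, defence and proteolysis.

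Alternatives were a pseudocount of 0.1, no filter, FPKM of 1 in every library, quantile and upper quartile scaling, no stage covariate, the interaction model, a replicate block, eBayes without trend, the first principal component as a covariate, and each library or replicate number left out.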

Additional observations from a re-analysis of the deposited data

Results flagged for a closer look

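For 10 called genes the line difference itself differed between stages by the interaction test of limma with Benjamini-Hochberg adjustment. Over all genes tested 16 passed that test. In 9 of the 10 TW-1 was higher at stages 1 and 2 and the difference was smaller at stage 3. These were the heat shock cognate 70 kDa gene LOC100789474 (adjusted p = 0.00829), the neurofilament medium-like gene LOC102667357 (0.0188), the low-temperature-induced 65 kDa protein-like gene46403 (0.0203), the ClpB1-like chaperone gene LOC100797673 (0.0274), the CIPK14-like kinase gene LOC100810319 (0.00842), the GTE10-like gene LOC100787770 (0.00842), and the genes LOC100527340 (0.0268), LOC100786628 (0.00829) and LOC100812553 (0.017), which have no described role here. The gene gene28949, also without a described role, was higher in TW-1-M with stage differences of 3.57, 1.66 and 0.51 (adjusted p = 0.00842).

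The low-temperature-induced gene46403 was at 5.55, 11.4 and 12.5 FPKM in TW-1-1 and at 0.58, 0.6 and 0.69 in TW-1-3, and was listed at 0 in 8 of 9 TW-1-M libraries. ClpB1-like LOC100797673 had stage differences of -2.25, -2.86 and 0.03, and its TW-1-3 libraries were at 0.81, 1.34 and 2.27 FPKM, within reach of the 1.11 to 1.75 of TW-1-M-3.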

How the results depend on the processing

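The table has no read counts, so calls of genes near 1 FPKM cannot be weighed by depth. The 1748 called, 1709 one-sign, 407 non-overlapping and 16 interaction genes became 3047, 2985, 612 and 10 with a pseudocount of 0.1, 896, 873 and 223 for the first 3 with FPKM of 1 in every library, 313, 313 and 186 without the stage covariate, and 466, 462, 163 and 346 with the principal component. No filter gave 28 interaction genes. The 9110 genes with a stage change became 5276 with FPKM of 1 in every library and 1013 with the principal component. The stage change has no value without the stage covariate or in the interaction model. Leaving out a library or a replicate number gave 417 to 2601 called, 417 to 2553 one-sign, 329 to 902 non-overlapping, 0 to 124 interaction and 6337 to 10791 stage genes. The interaction count of 0 by limma arose without replicate number 1, 2 or 3, where 1142 to 4323 genes passed unadjusted. Causes were not tested, beyond fewer genes or libraries in the fit.

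With the replicate block 1963 genes were called, 1916 with 1 sign, and no named call was lost. Replicate numbers were not treated as pairs, since no label ties them and deviations of same-numbered libraries correlated from -0.583 to 0.735 (mean 0.0959, 45 pairs). Of 2528 checks of 83 named genes under an alternative, 2242 kept their call, 279 lost it and 7 reversed, all 7 with the principal component, none of them called there, at -0.01 (gene25632), -0.14 (LOC100779689), -0.18 (LOC100781822), -0.05 (LOC100776588), -0.11 (LOC100775446), -0.36 (LOC100819408) and -0.23 (LOC100781185). The losses were uneven between alternatives. Of the 83 genes, 53 were not called without the stage covariate, 39 without replicate number 3 and 31 with the principal component. Without replicate number 2 there were 21 not called, without replicate number 1 there were 15, and without replicate 1 of TW-1-3 there were 7. Of all 1709 one-sign genes, 370 (21.7%) were still called without replicate number 3. The 8 named calls lost with no filter were MIPS4, LOC100809617, gene25632, LOC100779689, LOC100781822, LOC100776588, LOC100819408 and LOC100781185.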

Other observations

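Among the 86 one-sign genes that separated the lines in all 18 libraries, several with an annotation were not described above, and they were chosen after their values were seen. Beta-glucosidase 44 (LOC100813194) was abundant, between 323 and 940 FPKM in TW-1 and between 77.5 and 192 in TW-1-M (-2.22 ± 0.23 SE). A BTB/POZ domain protein (LOC100818740, POB1-like) lay between 131 and 386 and between 21.2 and 116 (-2.23 ± 0.2 SE). The ubiquitin carboxyl-terminal hydrolase L3 gene LOC100527718 lay between 15.9 and 40.0 and between 1.66 and 7.16 (-2.58 ± 0.23 SE). Higher in TW-1-M were SAN1A, a senescence-associated nodulin gene (0.5 to 2.29 against 5.55 to 18.7 FPKM, 2.30 ± 0.15 SE), the mitogen-activated protein kinase 7-like gene LOC100788131 (0.48 to 5.25 against 6.14 to 17.8, 2.32 ± 0.19 SE) and a probable prolyl 4-hydroxylase 9 (LOC100816628, 0 to 2.04 against 2.35 to 17.4, 2.49 ± 0.31 SE).

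In the gene order of Glycine_max_v4.0, which may differ from that of the build used for mapping, 65 of the 86 could be placed. In 4 of the 65 (6.15%) a neighbouring gene was also among them, beside 0.553% of all 23525 placed genes. The pairs were LOC100500432 with the 60 kDa chaperonin-like LOC100809997, both higher in TW-1-M (3.84 and 2.60), and LOC102659662 with LOC102659528, both lower (-1.83 and -1.80). This difference was not tested. For one-sign genes without a called stage change the share was 5.24% (15 of 286), beside 2.41% of all placed genes, which was not tested either. For one-sign genes with a called stage change it was 9.62%, beside 9.73% of all placed genes.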
